A study of Equus caballus with 2 samples.

Results

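The 10 genes described here encode the collagens of basement membranes and other non-fibrillar networks: the collagen IV chains COL4A1, COL4A2, COL4A3, COL4A4, COL4A5 and COL4A6, the collagen VIII chains COL8A1 and COL8A2, and the multiplexins COL15A1 and COL18A1. They were chosen by symbol, with earlier results of these data known, and each was listed once among the 21426 genes of both count tables. Each value is a number of unique molecular identifiers (UMIs), that is, of RNA molecules tagged before amplification, in cultured equine endometrial fibroblasts. The control group received no supplement and the TGF-β1 group received human recombinant TGF-β1 at 10 ng/ml, both for 24 h in medium with bovine serum albumin in place of serum. The fibroblasts of both groups came from the mid-luteal endometrium of mares with healthy or mildly fibrotic endometria and were grown on hydrogels coated with collagen type I. For either group, cells from 4 mares were pooled into 1 droplet library. The counts do not assign cells to mares, so no comparison could be tested, no p-value is given, and condition and library preparation cannot be told apart. All intervals are 95% intervals and cover counting error only.

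Collagen IV is the structural collagen of all basement membranes. Its chains fold into trimers inside the cell, the most widespread being built of the COL4A1 and COL4A2 chains, while the COL4A3, COL4A4 and COL4A5 chains form a trimer known from kidney glomeruli and a few other epithelia. The genes of each of 3 pairs (COL4A1 with COL4A2, COL4A3 with COL4A4, COL4A5 with COL4A6) lie head to head and share a promoter region. Collagen VIII is a short-chain collagen that forms hexagonal lattices, known from Descemet's membrane and from remodelled vessel walls. Collagens XV and XVIII carry glycosaminoglycan chains, connect basement membranes with the matrix beneath them, and release antiangiogenic fragments from their C-terminal ends, of which endostatin from collagen XVIII is the best known. In the endometrium, basement membranes surround the glands, the luminal epithelium and the vessels, and collagen IV is laid down around stromal cells that decidualize in species that do so. In the RefSeq table of the TB-T2T horse assembly, no protein-coding gene lay between the genes of any of the 3 collagen IV pairs, whereas COL8A1 and COL8A2, and COL15A1 and COL18A1, were on different chromosomes.

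The kept cells had 20000 or more UMIs, 3500 or more genes and a mitochondrial share of UMIs below 4%, which left 3865 control and 4513 TGF-β1 cells of 4384 and 5124 barcodes, with medians of 50313 and 43142 UMIs per cell. Only 2 kept barcodes occurred in both libraries. The label of the cells as fibroblasts was checked against 8 markers, all above 1 CPM (UMIs per 1000000 UMIs) in both libraries and summing to 21634 CPM in the control and 21746 CPM in the TGF-β1 library. The like sums hide opposite differences: VIM was at 4399 and 2240, THY1 at 215.5 and 87.5 and PDGFRA at 50.5 and 16.7 CPM, while COL1A1, COL1A2 and COL3A1, given further on, were higher after TGF-β1. Endothelial cells, which make collagen IV, XV and XVIII in vessels, were checked with 10 markers that summed to 4.16 CPM in the control and 3.85 CPM in the TGF-β1 library, with CDH5 at 3 and 2 UMIs and TIE1 at 3 UMIs in each. EGFL7, with 459 and 478 UMIs, made up over 50% of either sum, and the other members differed in both directions, with 88 and 8 UMIs of EMCN, 99 and 45 of VWF and 117 and 213 of CLDN5. The summed levels of markers of mural cells, 9 genes, were 828 and 707.7 CPM, of which DES made up 646.2 and 569.3 CPM, RGS5 51.7 and 61.1 CPM and PDGFRB 80.1 and 49.0 CPM, while KCNJ8 had 0 UMIs, which allows up to 0.0143 and 0.0137 CPM, and ABCC9 2 and 1 UMIs. Epithelial markers, 6 of 8 found, summed to 134.4 and 12.3 CPM, with EPCAM at 1 and 3 UMIs and CDH1 at 6 and 4 UMIs. KRT8, at 114.3 and 4.48 CPM, was the largest part in the control, and KRT7, at 19.3 and 7.045 CPM, in the TGF-β1 library. Immune markers, 5 genes, summed to 56.7 and 52.9 CPM, nearly all of it CD68 and CD14, with PTPRC at 1 and 0 UMIs. Cycling markers, 9 of 10 found, summed to 48.3 and 28.7 CPM. The part of these differences between the libraries in the values below was not tested, except that the values were recomputed without the cells with endothelial or cycling markers. Without the 681 control and 707 TGF-β1 cells that had a UMI of any of the 10 endothelial markers, a choice made after seeing the data, the log2 ratio of TGF-β1 to control was 1.76 for COL15A1, 0.14 for COL4A1 and 0.14 for COL18A1.

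The network collagens made up 801.4 CPM in the control and 1030 CPM in the TGF-β1 library, and COL4A1 was the most abundant of them in both. With a mean of at least 1 CPM, 8 of the 10 genes could be compared, and 5 of these were higher by more than 2-fold after TGF-β1 (COL8A2, COL8A1, COL15A1, COL4A3 and COL4A4), beside 3.45% of all 12116 genes that passed the same minimum. None was more than 2-fold lower, beside 3.46% of all genes. Because the genes were chosen with earlier results of these data known, the shares of all genes are given as a scale and not as a test. COL8A2 passed the minimum through the TGF-β1 library alone; among the 7 with at least 1 CPM in both libraries, 4 were more than 2-fold higher, beside 2.81% of all such genes. Raising the minimum mean to 10 CPM left 5 genes, 2 of them more than 2-fold higher (COL8A1 and COL15A1), beside 2.30% of all genes above that minimum. The other 2 genes, COL4A5 and COL4A6, fell below the minimum, COL4A5 just below it at a mean of 0.731 CPM, and both were lower in the TGF-β1 library. Without a CPM minimum they were the 2 of 10 more than 2-fold lower, beside 7.07% of all genes with more than 3 UMIs in a library. For the 8 genes, log2 ratios of TGF-β1 to control had a median of 1.41 (interval 1.32 to 1.51), beside -0.01 for all genes. Over the 7 genes with at least 1 CPM in both libraries it was 1.22, over all 10 genes without a minimum 0.67, and over the 5 genes left by a minimum of 10 CPM 0.12, so its size depends on which genes are counted. The median of the 8 lay within the upper of 2 groups: 5 log2 ratios were 1.22 or above and the other 3, of COL4A1, COL4A2 and COL18A1, were 0.12 or below.

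**Figure D1:**
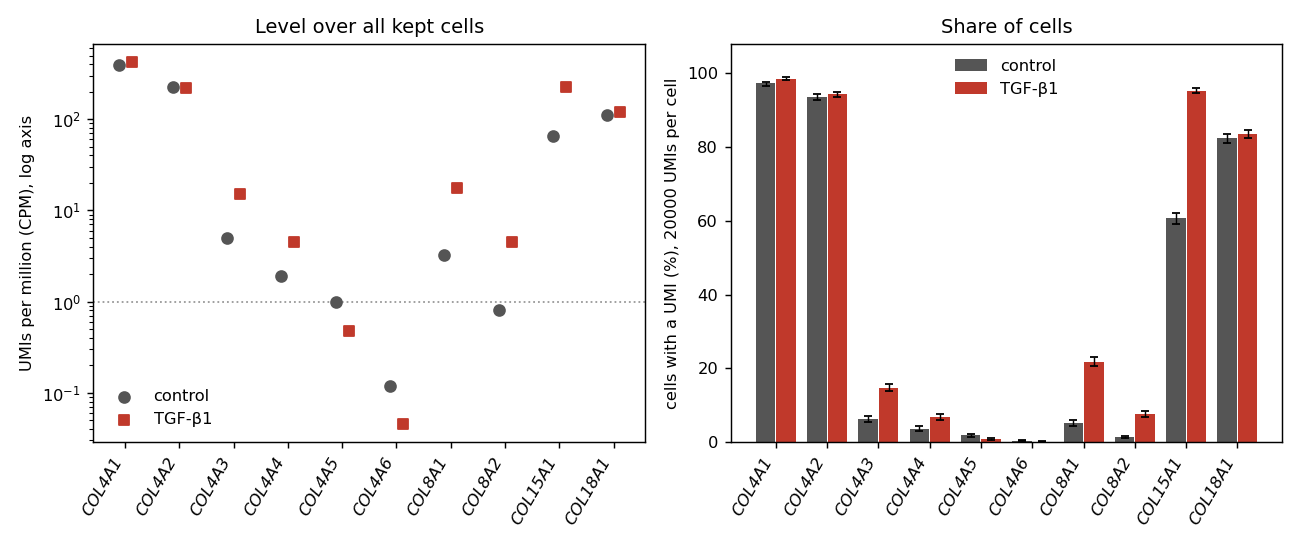
Left, level of each gene in CPM (log axis) in the control (grey circles) and the TGF-β1 library (red squares), with a dotted line at 1 CPM. Right, percentage of cells with at least 1 UMI after each cell was thinned to 20000 UMIs, with bars for the libraries and error bars for the exact binomial 95% interval. COL15A1 went from 65.5 to 223.1 CPM and from 60.7% to 95.3% of cells, while COL4A1, COL4A2 and COL18A1 differed little between the libraries.

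The widespread collagen IV chains were already high without TGF-β1 and differed little. COL4A1 had 82076 UMIs in the control and 93070 in the TGF-β1 library, or 389.9 and 423.6 CPM, a log2 ratio of 0.12 (0.11 to 0.13). COL4A2 had 46955 and 48635 UMIs, or 223.1 and 221.3 CPM, a log2 ratio of -0.01 (-0.03 to 0.01). Among all genes above the minimum these ratios stood at the 66.1 and 49.9 percentiles, near the middle. At an equal depth of 20000 UMIs per cell, COL4A1 was detected in 97.3% of the control cells and 98.6% of those given TGF-β1, and COL4A2 in 93.6% and 94.3%. The unthinned shares, which include the depth of each cell, were 99.3% and 99.7% for COL4A1 and 98.9% and 98.7% for COL4A2. For none of the 10 genes was a cell type that lacks it known to be present, so the share that free RNA alone would give could not be measured, and all shares are of cells with a UMI, not of cells that express the gene. The number of COL4A1 UMIs in a cell spread widely around a median of 6 in the control and 7 with TGF-β1. The 10% quantile was 2 in both, the 90% quantile 15 and 16, and the highest value 74 and 53. Its variance was 4.17 and 4.15 times its mean, where independent draws of molecules from identical cells give 1.

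Because 3′ UMIs count a transcript once whatever its length, COL4A1 and COL4A2 could be set side by side, although the counting of each depends on how well its 3′ end is annotated. The libraries held 1.75 COL4A1 UMIs for each COL4A2 UMI in the control (1.73 to 1.77) and 1.91 in the TGF-β1 library (1.89 to 1.94). The 2 intervals did not overlap, but they cover the counting error of 1 library each. At this depth, the interval of the log2 ratio lay above 0 for 39.5% and below 0 for 42.2% of all genes above the minimum. The ratio of COL4A1 to COL4A2 was the higher one in the TGF-β1 library in all 8 clusters of cells described further on. It ran from 1.48 to 1.87 in the control and from 1.76 to 2.07 in the TGF-β1 library, with 1.74 and 1.77 in cluster 0. The clusters are parts of the same 2 libraries and not repeats. At equal depth, COL4A1 UMIs outnumbered COL4A2 UMIs in 71.6% of the cells in the control and 76.2% in the TGF-β1 library, and the reverse held in 18.7% and 15.9%.

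COL4A1 and COL4A2 varied with the depth of the cell, and the small difference between the libraries varied with it. When all kept cells were divided into tertiles of UMIs per cell, at 40916 and 53320 UMIs, the control level of COL4A1 was 268.2, 353.7 and 442.6 CPM from the lowest to the highest tertile, and with TGF-β1 354.8, 458.2 and 448.3 CPM. The log2 ratio of COL4A1 was therefore 0.40 (0.37 to 0.44) in the lowest, 0.37 (0.35 to 0.40) in the middle and 0.02 (-0.0007 to 0.04) in the highest tertile. For COL4A2 it was 0.16 (0.11 to 0.21), 0.20 (0.17 to 0.23) and -0.08 (-0.10 to -0.05), so that its sign was not the same in all tertiles. The control library had 879 cells in the lowest and 1612 in the highest tertile and the TGF-β1 library 1914 and 1181, and the value over all cells mixes tertiles in these unequal numbers. For both chains, the ratio was above the value over all cells in the lower 2 tertiles and below it in the highest.

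**Figure D2:**
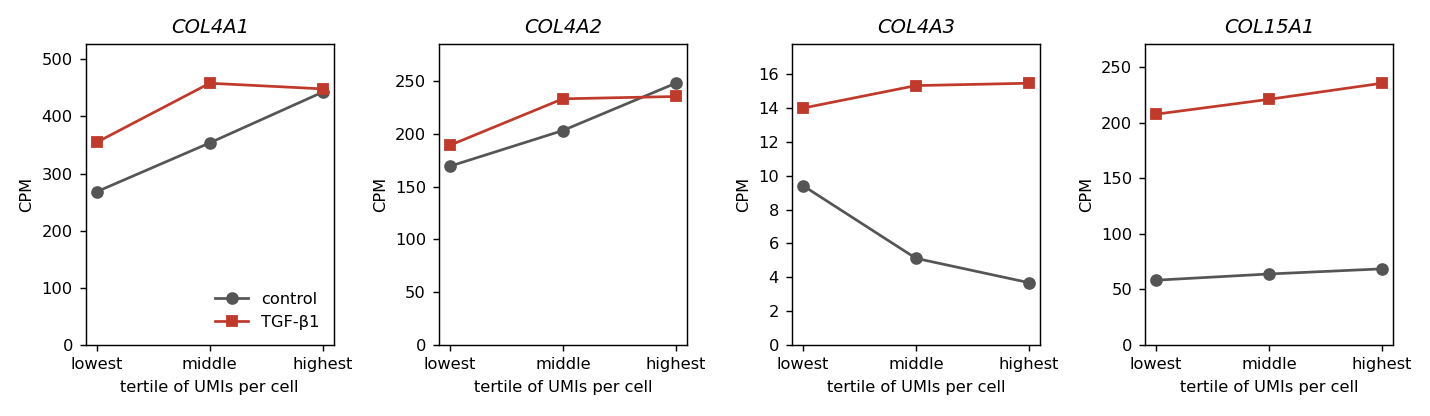
Level in CPM (y axis, from 0) of COL4A1, COL4A2, COL4A3 and COL15A1 in the control (grey circles) and TGF-β1 library (red squares) in cells of the lowest, middle and highest tertile of UMIs per cell. COL4A1 met at 442.6 and 448.3 CPM in the highest tertile, COL4A3 was farthest apart there, at 3.68 and 15.5 CPM, and COL15A1 kept its distance in all 3.

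The chains of the COL4A3 and COL4A4 pair were rare and both higher after TGF-β1. COL4A3 had 1042 UMIs in the control and 3294 in the TGF-β1 library, or 4.95 and 14.99 CPM, 3.03-fold higher (2.82 to 3.25) at a log2 ratio of 1.60 (1.498 to 1.70). COL4A4 had 402 and 980 UMIs, or 1.91 and 4.46 CPM, 2.34-fold higher (2.08 to 2.63) at a log2 ratio of 1.22 (1.06 to 1.40). At equal depth, COL4A3 was detected in 6.13% of cells in the control and 14.7% in the TGF-β1 library, and COL4A4 in 3.60% and 6.69%. The UMIs of COL4A3 were unevenly spread: a cell with any COL4A3 held 1.90 UMIs of it on average in the control and 2.03 in the TGF-β1 library, the highest cells held 18 and 20, and the variance was 3.69 and 3.19 times the mean. In the TGF-β1 library COL8A1 was of like abundance, with a mean of 0.324 UMIs per cell against 0.298 for COL4A3, and its variance was 1.81 times its mean. COL4A3 also differed between the libraries most in deep cells, with log2 ratios of 0.57 (0.38 to 0.77), 1.58 (1.40 to 1.77) and 2.07 (1.92 to 2.23) from the lowest to the highest tertile of UMIs per cell. Its control level went from 9.41 CPM in the lowest to 3.68 CPM in the highest tertile, whereas its level in the TGF-β1 library stayed between 14.0 and 15.5 CPM. COL4A4 had log2 ratios of 0.57, 1.11 and 1.55 in the same order.

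COL4A5 and COL4A6, the remaining collagen IV pair, were near the lower end of detection. COL4A5 had 208 UMIs in the control and 104 in the TGF-β1 library, or 0.988 and 0.473 CPM, a log2 ratio of -1.06 (-1.42 to -0.72), and a UMI of it was found in 1.76% and 0.864% of cells at equal depth. COL4A6 had 25 and 10 UMIs, a log2 ratio of -1.38 with a wide interval (-2.61 to -0.28), and was found in 0.285% and 0.0886% of cells. In the tertiles of UMIs per cell the log2 ratio of COL4A5 was -1.73 in the lowest, -0.63 (-1.32 to 0.05) in the middle and -0.91 in the highest, and that of COL4A6 0.40 (-2.16 to 3.17) in the middle and -1.63 in the highest. In the clusters of cells described further on, COL4A5 was lower in 4 of the 7 with enough UMIs for a ratio, and its interval held 0 in the other 3, among them cluster 2 at 0.31. Over all cells, COL4A5 and COL4A6 were the only network collagens with more UMIs in the control than in the TGF-β1 library, although that library had more cells and more UMIs in all. All 3 chains of the COL4A3, COL4A4 and COL4A5 trimer were found together in 5 control and 9 TGF-β1 cells without thinning, 0.129% and 0.199% of cells, with overlapping intervals (0.0420% to 0.302% and 0.0912% to 0.378%).

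COL8A1 and COL8A2 had the highest ratios of the 10 genes. COL8A1 had 688 UMIs in the control and 3894 in the TGF-β1 library, or 3.27 and 17.7 CPM, 5.42-fold higher (5.00 to 5.89) at a log2 ratio of 2.44 (2.32 to 2.56). COL8A2 had 168 and 999 UMIs, or 0.798 and 4.55 CPM, 5.70-fold higher (4.83 to 6.75) at a log2 ratio of 2.51 (2.27 to 2.76). Both ratios stood at the 99.6 percentile of all genes above the minimum, and their intervals overlapped. The share of cells with COL8A1 was 5.12% (4.45% to 5.87%) in the control and 21.8% (20.6% to 23.0%) in the TGF-β1 library at equal depth, and that of COL8A2 was 1.27% and 7.49%. Without thinning, these shares were 11.5% and 38.1% for COL8A1 and 3.42% and 13.6% for COL8A2. A cell with COL8A1 held 1.22 UMIs of it in the control and 1.49 in the TGF-β1 library, a number that cannot be below 1 and was close to it in both. Across tertiles of UMIs per cell the log2 ratio was 2.08, 2.32 and 2.74 for COL8A1 and 2.87, 2.59 and 2.28 for COL8A2, opposite orders for the 2 chains, with intervals that overlapped between tertiles for COL8A2.

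COL15A1 carried most of the difference in the summed level of the network collagens. It had 13792 UMIs in the control and 49033 in the TGF-β1 library, or 65.5 and 223.1 CPM, 3.41-fold higher (3.34 to 3.47) at a log2 ratio of 1.77 (1.74 to 1.80), the 99.0 percentile of all genes above the minimum. Its share of all UMIs of the 10 genes was 8.18% in the control and 21.7% in the TGF-β1 library, while that of COL4A1 was 48.7% and 41.1% and that of COL4A2 27.8% and 21.5%. In the control COL4A1, COL4A2 and COL18A1 were above it, and in the TGF-β1 library it stood level with COL4A2, with 1.01 COL15A1 UMIs per COL4A2 UMI (0.996 to 1.02). A UMI of COL15A1 was present at equal depth in 60.7% of cells in the control and 95.3% in the TGF-β1 library, and those cells held 2.12 and 4.60 UMIs on average. The median cell held 1 UMI in the control and 4 in the TGF-β1 library, and the 90% quantile of the control, 3 UMIs, was below the median of the TGF-β1 library. The log2 ratio was 1.84, 1.79 and 1.78 in the tertiles of UMIs per cell, the most even of the 5 genes that were more than 2-fold higher.

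COL18A1, the other multiplexin, did not share the difference of COL15A1. It had 23327 UMIs in the control and 26394 in the TGF-β1 library, or 110.8 and 120.1 CPM, a log2 ratio of 0.12 (0.09 to 0.14) at the 65.7 percentile of all genes. At equal depth the shares of cells with COL18A1 were 82.4% (81.1% to 83.6%) and 83.7% (82.6% to 84.7%), with overlapping intervals, and the median cell held 2 UMIs in both libraries. In the tertiles of UMIs per cell its log2 ratio was between 0.07 and 0.15. The number of different network collagens found in 1 cell was 4 in the median cell of both libraries. Cells with 3 or fewer of the genes were common in the control, where 37.0% had exactly 3, against 13.9% in the TGF-β1 library. Exactly 5 were present in 8.07% of cells in the control and 24.5% in the TGF-β1 library, and exactly 6 in 0.931% and 6.80%.

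**Figure D3:**
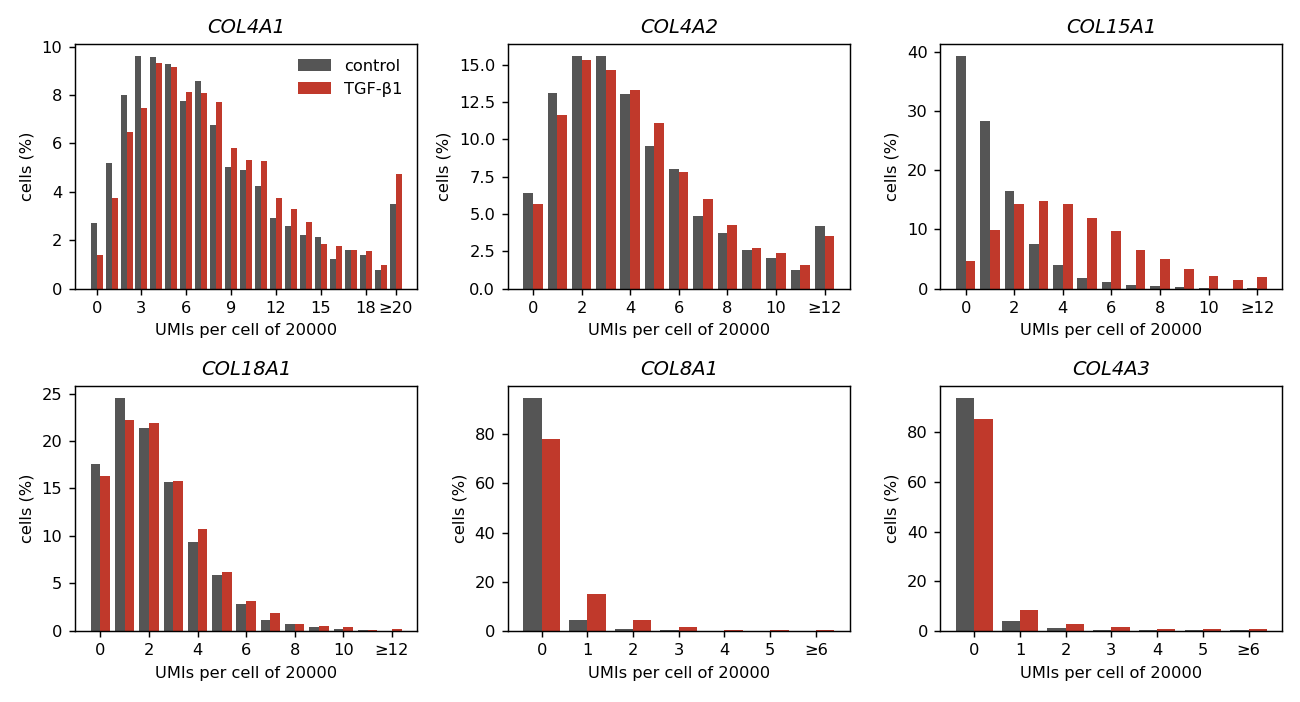
Percentage of cells (y axis) by the number of UMIs of a gene in the cell (x axis, the last bar open upwards) after each cell was thinned to 20000 UMIs, for control (grey) and TGF-β1 (red). The COL15A1 distribution moved from a median of 1 to a median of 4 UMIs, that of COL4A2 and COL18A1 nearly coincided, and COL8A1 and COL4A3 had 0 UMIs in most cells of both libraries.

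Chains that build one trimer have to be made in the same cell, so the co-detection of the collagen IV pairs was counted in cells thinned to 20000 UMIs. Pairs of the collagen VIII and multiplexin families and pairs of unrelated chains were set beside them. COL4A1 and COL4A2 shared 91.6% of cells in the control and 93.3% in the TGF-β1 library, where the product of their single shares is 91.0% and 93.0%. Because so few cells lacked COL4A1, these shares leave little room, and the odds ratios of 5.54 (3.51 to 8.77) and 5.07 (2.76 to 9.33) rest on the few cells without it. With another random thinning they were 7.67 and 2.56. The UMI numbers of the pair carried more: the Pearson r of the log values per cell was 0.51 in the control and 0.47 in the TGF-β1 library, and of 7212 other genes COL4A2 was the one that correlated most with COL4A1. The next in rank were DST, which encodes the cytolinker dystonin, at a mean r of 0.41, and FNDC3B at 0.38. Among the other network collagens the mean r with COL4A1 was 0.16 for COL15A1, 0.08 for COL18A1 and 0.05 for COL8A1. Each r was computed across the cells within a library, and the mean r is the mean over the 2 libraries. It was taken over all clusters together, and the levels of COL4A1 and COL4A2 differ among clusters, as given further on. Cells of the same library are not replicates, so the correlations are a description.

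COL4A3 and COL4A4 were found together more often than their single shares give. Both were present in 35 control cells, 0.906% (0.631% to 1.26%), where the product of the single shares is 0.221%, and in 144 TGF-β1 cells, 3.19% (2.70% to 3.75%), where the product is 0.985%. COL4A4 was found in 14.8% of the control cells with COL4A3 and in 2.87% of those without it, and in 21.7% and 4.11% in the TGF-β1 library. The odds ratio was 5.87 (3.90 to 8.83) in the control and 6.47 (5.07 to 8.26) in the TGF-β1 library. With another random thinning they were 9.04 and 6.78, and at 10000 UMIs per cell 8.90 and 6.12, so the order of the libraries was not the same under each thinning and none is read. COL4A5 and COL4A6 shared no cell in either library, which allows up to 0.0954% and 0.0817% of cells, while the product of their single shares is lower still. Co-detection of that pair was not detectable at this depth.

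COL8A1 and COL8A2, paired as chains of the collagen VIII family and not as chains of one trimer, differed from COL4A3 and COL4A4 in the TGF-β1 library. Both were found in 8 control cells, 0.207%, and in 83 TGF-β1 cells, 1.84% (1.47% to 2.28%), where the product of the single shares is 0.0649% and 1.63%. The odds ratio was 3.72 (1.72 to 8.05) in the control and 1.18 (0.91 to 1.53) in the TGF-β1 library, and the r of their log values was 0.05 and 0.01. The interval of the TGF-β1 odds ratio held 1 and lay below that of COL4A3 and COL4A4. In the control it rested on 8 cells and was 1.84 in unthinned cells, 2.74 with another random thinning and 1.19 at 10000 UMIs per cell, against 1.47, 1.10 and 0.908 in the TGF-β1 library, so no difference between the libraries is read from it. The multiplexins COL15A1 and COL18A1, which do not build a common trimer, had odds ratios of 1.02 (0.86 to 1.21) and 1.29 (0.91 to 1.83), with another random thinning 1.24 and 1.75, and in unthinned cells 1.33 and 5.10. The unrelated pairs COL8A1 with COL15A1 and COL4A1 with COL15A1 had odds ratios between 1.53 and 1.81. COL8A1 with COL15A1 was at 1.19 in the control with another random thinning and at 2.83 in the TGF-β1 library in unthinned cells, and COL4A1 with COL15A1 at 3.66 in unthinned control cells. COL4A1 with COL18A1 had 1.25 (0.77 to 2.01) and 0.756 (0.36 to 1.60). With another random thinning, COL4A1 with COL15A1 was at 4.97 in the TGF-β1 library, above the 2.56 of COL4A1 with COL4A2, and COL4A1 with COL18A1 at 1.60. The odds ratios with COL4A1 therefore do not separate the trimer pair from the unrelated pairs in the TGF-β1 library.

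**Figure D4:**
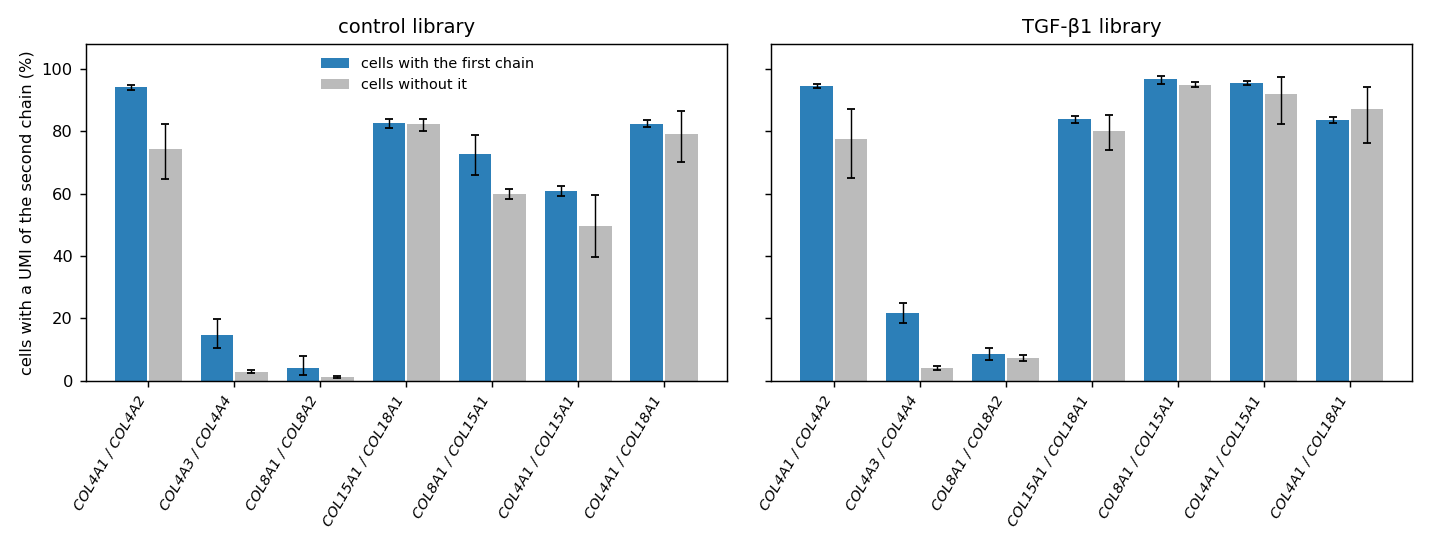
Percentage of cells with a UMI of the second chain (y axis) among cells with a UMI of the first chain (blue) and among cells without it (grey), in the control (left) and TGF-β1 library (right), at 20000 UMIs per cell with exact binomial 95% intervals. The bars stand farthest apart, relative to their height, for COL4A3 with COL4A4 (14.8% and 2.87%, 21.7% and 4.11%). For COL8A1 with COL8A2 in the TGF-β1 library they were 8.44% and 7.22%.

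Cells were clustered to see whether the differences were shared among them. The network collagens were first taken out of the 2000 variable genes (7 of the 10 had been among them), and the 8 clusters are given by number, since only 1 could be named from markers and clusters may also follow the mares. Cluster 6 was cycling-like, with 9 of 9 markers more than 2-fold above the other cells. COL15A1 was more than 2-fold higher after TGF-β1 in all 8 clusters, from a log2 ratio of 1.59 in cluster 3 to 2.02 in cluster 7. COL8A1 was more than 2-fold higher in all 8 as well, from 1.81 in cluster 7 to 3.29 in cluster 1, and COL8A2 in each of the 5 clusters in which it had more than 3 UMIs in both libraries. The clusters depend on the resolution of the clustering, which was 0.5. With the 12 clusters at resolution 0.8, COL15A1 remained more than 2-fold higher in 12 of 12, from 1.39, whereas COL8A1 was so in 11 of 12, with a lowest log2 ratio of 0.57 (-0.21 to 1.36) in a cluster with 26 and 34 UMIs. At resolution 0.5, COL18A1 was between -0.01 and 0.30, with an interval that held 0 in 5 clusters, and at resolution 0.8 its lowest log2 ratio was -0.20 (-0.39 to -0.02). At resolution 0.5, COL4A1 was higher in 6 clusters, level within its interval in 1 and lower in cluster 2 (-0.08), whose leading genes included KRT7 and KRT8, with its highest log2 ratio, 0.69, in cluster 7, which had 58 cells in the TGF-β1 library. The highest was 0.26 at resolution 0.3 and 0.46 at resolution 0.8. COL4A2, again at resolution 0.5, was higher in 3 clusters, lower in 3 and level within its interval in 2.

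COL4A3 and COL4A4 were unevenly spread over the clusters. COL4A3 was at 19.3 CPM in cluster 3 of the control, where its level in the other clusters was between 0.823 and 9.20 CPM, and at 42.2 CPM in cluster 3 of the TGF-β1 library. Cluster 3 held 15.8% of cells in the control and 16.1% in the TGF-β1 library but 61.1% and 46.5% of all COL4A3 UMIs and 36.6% and 41.4% of all COL4A4 UMIs. The cluster with most COL4A3 UMIs held 63.6% and 52.1% of them at resolution 0.3, with 29.8% and 27.3% of cells, and 45.9% and 29.1% at resolution 0.8, with 18.9% and 14.8% of cells. COL4A3 was itself the first of the leading genes of cluster 3, followed by DACH1, a transcription factor, FREM1, a basement membrane protein, and COL24A1, a minor fibrillar collagen. In this cluster, COL4A3 was detected at equal depth in 18.3% of the control cells and 34.0% of those given TGF-β1. After TGF-β1 cluster 7, with 58 cells, was at the same level, 42.3 CPM. The log2 ratio of COL4A3 was 1.13 in cluster 3, 3.08 in cluster 4, where the control level was lowest at 0.823 CPM, and 0.27 in cluster 5, the 1 cluster of 8 below 2-fold, whose interval held 0. This range depended on the clustering: the lowest log2 ratio of COL4A3 was 1.39 at resolution 0.3, where 5 of 5 clusters were more than 2-fold higher, and 0.87 at resolution 0.8, where 11 of 12 were, and the highest was 2.17 and 4.73. COL4A4 was between -0.73 in cluster 5, with 15 and 8 UMIs, and 1.70 in cluster 7, and more than 2-fold higher in 5 of 8. Its interval in cluster 5 held 0 (-2.18 to 0.60), and its lowest log2 ratio was 0.73 at resolution 0.3 and 0.37 at resolution 0.8, so no direction is read from cluster 5. The co-detection of COL4A3 and COL4A4 was also present outside cluster 3, with an odds ratio of 6.24 (3.57 to 10.9) in the control and 4.75 (3.48 to 6.48) in the TGF-β1 library, and inside it with 3.36 (1.78 to 6.34) and 8.65 (5.25 to 14.2).

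**Figure D5:**
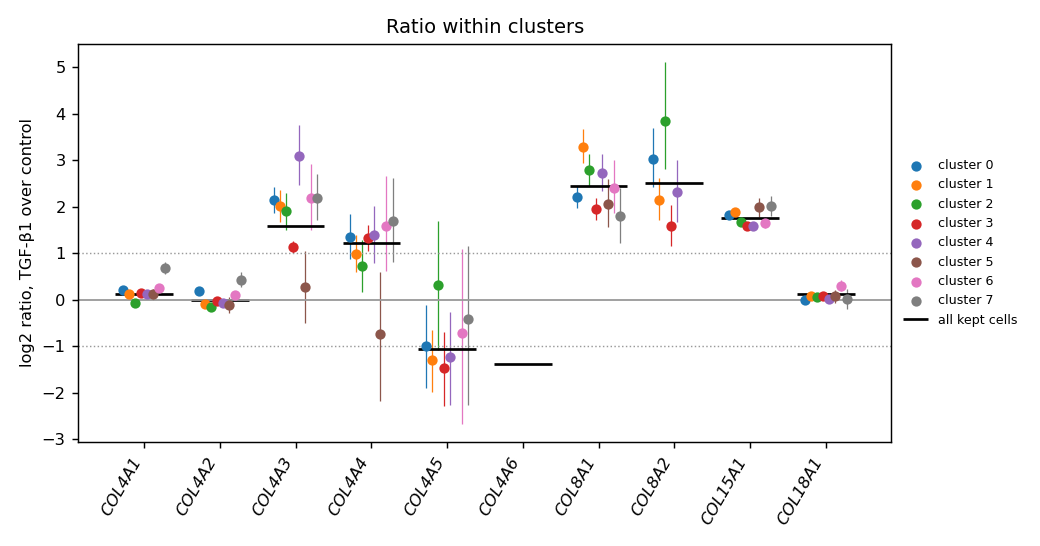
Log2 ratio of TGF-β1 over control (y axis) of each gene in 8 clusters (coloured points, with the 95% counting interval) and over all kept cells (black bars), with dotted lines at 2-fold. COL15A1 lay between 1.59 and 2.02 in all 8 clusters, COL4A3 between 0.27 and 3.08, and COL4A6 had too few UMIs for a ratio in any cluster.

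The level of COL4A1 and COL4A2 also differed among clusters more than between the libraries. In the control COL4A1 was lowest in cluster 5, at 154.3 CPM, and highest in cluster 3, at 496.8 CPM, and COL4A2 went from 88.8 to 291.2 CPM in the same clusters. In the TGF-β1 library the same clusters were lowest and highest, at 167.6 and 546.6 CPM for COL4A1 and at 82.1 and 286.6 CPM for COL4A2. Cluster 5 was led by CFD, which encodes complement factor D, and its cells were shallow, with medians of 41953 and 33759 UMIs. COL18A1 had another order: it was lowest in cluster 2, at 68.3 and 71.7 CPM, and was 119.5 and 126.5 CPM in cluster 5. COL15A1 was lowest in cluster 5 too, at 36.1 and 143.3 CPM, where it was nevertheless 1.99 higher on the log2 scale after TGF-β1.

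The genes whose levels per cell were most like those of the multiplexins differed. Nearest to COL15A1 were FN1, which encodes fibronectin, at a mean r of 0.28, IL11, an interleukin of the IL-6 family, at 0.26, and COL3A1, a fibrillar collagen chain, at 0.26. For COL3A1 the r was 0.14 in the control and 0.37 in the TGF-β1 library. Nearest to COL18A1 were AEBP1, STRA6, a retinol transporter, and CFD, all at a mean r of 0.19. For COL8A1 the highest mean r was 0.10 (RBP2, followed by EFHD1 and MFGE8), too low to be read in counts this sparse.

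Of 30 other genes of basement membranes, among them laminin chains, nidogens and proteoglycans, 23 reached a mean of 1 CPM, and they differed in both directions. At this depth an interval off 0 is common, being above 0 for 39.5% and below 0 for 42.2% of all genes above the minimum. Of the 23 genes 11 had an interval above 0 and 12 one below 0, with a median log2 ratio of -0.21, beside -0.01 for all genes. More than 2-fold higher were 2 of the 23, beside 3.45% of all genes. These were LAMB1, a laminin β chain, at 66.3 and 139.2 CPM (log2 ratio 1.07) and HMCN1, which encodes hemicentin, at 45.7 and 93.1 CPM (1.03). The interval of the log2 ratio of HMCN1 (0.993 to 1.063) held 1, the 2-fold limit. More than 2-fold lower was 1 of the 23, FREM1, beside 3.46% of all genes. FREM1 had 2068 UMIs in the control and 188 in the TGF-β1 library, or 9.82 and 0.856 CPM (-3.52), and passed the minimum through the control alone. The most abundant were SPARC, which binds collagen IV, at 2453 and 3804 CPM (0.63), FBLN1, which encodes fibulin, at 513 and 352.7 CPM (-0.54), and LAMC1, the laminin γ chain of most laminin trimers, at 327.4 and 219.2 CPM (-0.58). LAMB1 and LAMC1, chains of the same trimers, thus differed in opposite directions, and the proteoglycan HSPG2, or perlecan, was at 29.7 and 30.8 CPM (0.06). HSPG2 was named after its value was seen.

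Of the genes of collagen IV folding and cross-linking 12 were measured. Of these, 12 of 12 had an interval above 0, beside the 39.5% of all genes, and the median log2 ratio was 0.36, beside -0.01. One of the 12, CERT1, at 81.3 and 91.2 CPM (0.17), encodes a ceramide transfer protein and not a collagen enzyme. Without CERT1 the count was 11 of 11, with a median of 0.36. The list was drawn up with earlier results of these data known. Most of its genes were also abundant, which narrows their counting intervals. The 39.5% is therefore not a like background, and nothing is concluded from the count. The list included 2 that were more than 2-fold higher, beside 3.45% of all genes. LOXL2, a lysyl oxidase that cross-links collagen IV, was at 129.4 and 259.9 CPM. Its log2 ratio of 1.01 had an interval (0.985 to 1.027) that held 1, the 2-fold limit. P3H2, a prolyl 3-hydroxylase that acts on collagen IV, was at 0.907 and 3.04 CPM (1.74) and passed the minimum through the TGF-β1 library alone. The most abundant were the collagen chaperone SERPINH1 at 1783 and 2044 CPM (0.20), P4HB, a subunit of prolyl 4-hydroxylase, at 683.3 and 809.3 CPM (0.24), and P4HA1, the catalytic subunit, at 322 and 391.2 CPM (0.28). PXDN, the peroxidase that forms the sulfilimine bonds between collagen IV networks, was at 174.1 and 292.6 CPM (0.75) and, like CERT1, was named after its value was seen. Most of these enzymes also act on fibrillar collagens, whose chains COL1A1, COL1A2 and COL3A1 were among the fibroblast markers at 5608 and 6376, 4256 and 5084, and 4456 and 5583 CPM. A list of 15 had been drawn up, and 3 of its genes (COLGALT1, MIA3 and MIA2) were not found by symbol.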

How the data were processed

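Single cell libraries (10x Genomics 3′ v3.1 chemistry) of control and TGF-β1-treated fibroblasts were analysed. The deposited values are raw UMI counts per gene and barcode, which the authors made with Cell Ranger (7.1.0 in the submitters' notes, 8.0.1 in the file headers) against EquCab3.0. The study's calls of mares and doublets rest on reads and were not used here, and doublets were not removed. The members and all lists were chosen with earlier results of these data known.

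UMIs of the kept cells (210497250 control, 219731144 TGF-β1) were summed and scaled to CPM in Python 3.11.15 (numpy 2.4.6, scipy 1.17.1, pandas 2.3.3). Ratios have no pseudocount. Ratios and shares have exact binomial (Clopper-Pearson) 95% intervals, and the median has one from 1000 Poisson draws. A fixed size rule of 2-fold took the place of a test. Odds ratios have Woolf intervals. Cells were thinned to 20000 UMIs at random without replacement. Clusters were made in Seurat 5.3.0 under R 4.3.3 (30 dimensions, canonical correlation integration, resolution 0.5), and ratios were given for clusters with at least 50 cells per library. Named were all 10 members, marker genes, list genes past 2-fold, the 3 most abundant per list and the 3 genes most correlated with each of COL4A1, COL8A1, COL15A1 and COL18A1 (at least 10 CPM). Figures were drawn in matplotlib 3.10.9. The code was tested on simulated data. No sequence is shown, since the RefSeq table used here holds none, and no coordinates, since its assembly is not that of the counts.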

Additional observations from a re-analysis of the deposited data

How the results depend on the processing

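Each log2 ratio was recomputed under 10 alternatives (other UMI and mitochondrial limits, all barcodes, the deepest cells removed, other scalings, mitochondrial genes, cycling cells or, chosen after seeing the data, cells with any of 7 or of all 10 endothelial markers left out). Of 100 values 92 stayed within the counting interval and none changed a called direction. COL15A1 stayed between 1.76 and 1.78, COL8A1 between 2.33 and 2.45, COL4A3 between 1.44 and 1.72, and COL4A2 between -0.02 and 0.02. The count of genes more than 2-fold higher was 2 of 5 with a minimum mean of 10 CPM, and that of those lower was 2 of 10 without a minimum. The median log2 ratio was 0.12 with a minimum of 10 CPM, where COL4A3, COL4A4 and COL8A2 drop out, and 0.67 without one, where COL4A5 and COL4A6 enter, 1.28 with the mean of per-cell CPM and 1.51 without cells with 7 of the endothelial markers (224 control and 288 TGF-β1 cells), causes that were not tested. The odds ratio of COL4A1 and COL4A2 was 2.82 in the control and 2.71 in the TGF-β1 library at 10000 UMIs per cell. In the TGF-β1 library it was 23.0 in unthinned cells and 2.56 with another seed, so its size is uncertain there. Over all cells it stayed above 1, but not within every cluster. It was 0 in clusters 1, 3 and 6 of either library, where no cell lacked both chains. In cluster 5 it was 1.10 (0.43 to 2.83) in the control and 1.64 (0.58 to 4.62) in the TGF-β1 library. The COL4A1 to COL4A2 UMI ratio of the TGF-β1 library was 1.89 over all deposited barcodes. The odds ratio of COL4A3 and COL4A4 in the control was 9.04 with another seed, and that of COL8A1 and COL8A2 was 1.19 in the control and 0.908 in the TGF-β1 library at 10000 UMIs per cell. In the TGF-β1 library, COL4A1 with COL15A1 was 4.97 with another seed and 0 in unthinned cells, and COL4A1 with COL18A1 was 1.60 with another seed and 1.89 in unthinned cells. Of the lowest and highest cluster ratios, 26 values of 52 left the counting interval under another clustering. Among these, the lowest of COL4A1 was -0.18 and that of COL18A1 -0.20 at resolution 0.8. Without integration only 1 of 7 clusters had 50 cells of each library, so clusters could not be compared there. The COL4A1 to COL4A2 ratio was higher after TGF-β1 in 5 of 5 clusters at resolution 0.3 and 12 of 12 at 0.8. These clusters divide the same cells anew and are not repeats. With 1 library per group no replicate could be left out. No paired analysis was possible because each group has a single library with no test. Depth limits COL4A5, COL4A6 and ratios within clusters of rare chains.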
